A study of Homo sapiens with 10 samples.

Results

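Laminins are large heterotrimers of an alpha, a beta and a gamma chain that build the basement membrane, and pluripotent stem cells attach to them through integrins, receptors made of an alpha and a beta subunit. The α6 and β1 integrin subunits form the main laminin receptor of human pluripotent stem cells, and these cells are known to secrete laminin trimers with the α5 or α1 chain. The αv and β5 subunits pair to bind vitronectin, a matrix protein also used as a culture substrate. The genes described here are 6 laminin chains (LAMA1, LAMA5, LAMB1, LAMB2, LAMC1 and LAMC3) and 4 integrin subunits (ITGA6, ITGB1, ITGAV and ITGB5), taken by symbol from a table of 13808 genes, and all 10 were found in it. They were chosen by symbol with earlier results for these same 10 libraries in view, that is, with their measured levels and their differences between the groups known. Their levels and changes are therefore descriptions, and the p-values printed for them give their place in a fit of the whole table and are not independent evidence.

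RNA was sequenced from H1, a human embryonic stem cell line with the genotype label wild type, after delivery of a short hairpin RNA (shRNA) against SMARCA4, MAFK, E2F6 or KDM1A, or against luciferase (shLUC), the control. All 5 groups shared the H1 line, growth in mTeSR1 medium on Matrigel, shRNA virus packaged in 293T cells and puromycin selection, and each group had 2 libraries. Matrigel is itself a laminin-rich basement membrane extract of mouse origin, so the cells grew on laminin that they had not made. The design calls the 2 libraries of a group biological duplicates, and since separate transductions are not described, the p-values measure only the spread between these libraries. Values are the authors' normalized tag counts, with the same median of 594 in every library, so read depth is unknown.

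The libraries were checked once as a whole. The target transcript stood at 12.7% of its control mean in shSMARCA4, 42.1% in shKDM1A, 61.3% in shE2F6 and 59.6% in shMAFK. Of these falls, only that of SMARCA4 passed an adjusted p of 0.05 (limma adjusted p 8.55e-05). The limma adjusted p was 0.132 for KDM1A, 0.774 for E2F6 and 0.572 for MAFK. The MAFK values of the knockdown (82 and 216) and control libraries (212 and 288) overlapped. The log2 change of MAFK was -0.89, -0.19 without shMAFK replicate 1 and -1.58 without replicate 2, so its size rested on 1 library. That of KDM1A was -1.3, -1.71 without shKDM1A replicate 1 and -0.9 without replicate 2. All 12 pluripotency markers examined were rows of the table. They summed to 300214 in shKDM1A replicate 1 and to 168308 to 225180 elsewhere. POU5F1 ran from 16615 to 148866, the latter in shKDM1A replicate 1. That is the highest value of every library, held by 10 rows in each, so neither it nor that library's sum measures the size of a rise. SOX2 ran from 4426 to 7680, with the shSMARCA4 libraries lowest (4426 and 4748). LIN28A, PODXL, PRDM14, TDGF1 and TERF1 were also lower in both shSMARCA4 libraries than in shLUC, and NANOG was higher. Of 11 markers listed for extraembryonic or definitive endoderm, 4 were in the table (EOMES, FOXA2, HHEX and MIXL1). Their summed value was 5271 and 1163 in the shSMARCA4 libraries against 72 to 153 elsewhere. Most of it was EOMES (2430 and 724) and MIXL1 (1809 and 132). GATA4, GATA6 and SOX17, also listed, were not rows, so the sum does not by itself identify endoderm. Trophoblast markers (2 of 10 in the table) summed to 80 to 86 in shSMARCA4 and 172 to 439 elsewhere, with KRT7 at 30 and 44 against 125 to 360 and TFAP2C, at 56 and 36, within the 16 to 138 of the others. The sum of mesenchyme or mesoderm markers (3 of 8, COL1A1, PDGFRA and VIM) was 1461 and 1545 against 5346 to 11856. It was made up mostly of COL1A1 and VIM. PDGFRA had 104 and 40 in shSMARCA4 against 73 to 124 elsewhere, so its replicate 1 lay within the range of the others. Neuroectoderm markers (5 of 7) summed to 7294 to 13868 over all libraries, a sum made up mostly of NES and TUBB3. Among them ZIC1 had 462 and 1004 in shSMARCA4 against 36 to 149 elsewhere, and MAP2 466 and 741 against 154 to 369. TUBB3 and OTX2 went the other way, with both shSMARCA4 libraries below both controls. Their shSMARCA4 values were 2200 and 2072 for TUBB3 (controls 5536 and 3264) and 602 and 326 for OTX2 (controls 674 and 734). These values of both genes lay within the range of the remaining libraries. NES was split, at 6143 in replicate 1 and 3168, its lowest value, in replicate 2 (controls 5300 and 6143). In such bulk RNA, fewer cells of a type and less RNA per cell cannot be told apart. The shKDM1A libraries stood apart by their spread. Their SD between replicates was 0.53 on the log2 scale over all rows, against 0.264 to 0.335 in the other groups. For the 10 genes, changes against shLUC are therefore also given without both shKDM1A libraries where that alters a call. Differences between knockdowns are not all given in this way. Leaving out shKDM1A replicate 2 alone raised the calls in shKDM1A from 4 to 3235 of the 14785 rows, so passing in that fit was common across the table.

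Levels were first compared between the genes, as normalized tag count per kilobase of merged exons and as the median of the 10 libraries. ITGB1, the beta subunit shared by most laminin-binding integrins, was highest at 1470 per kilobase, followed by LAMA5 at 975 and ITGA6 at 917. ITGB5 had 584, LAMC1, the gamma chain of most laminins, 499, LAMB2 324, LAMB1 277, LAMA1 231 and ITGAV 223. LAMC3, a gamma chain known from few tissues, was lowest at 66.6 per kilobase. LAMC1 stood above LAMB2, and ITGAV above LAMC3, in all 10 libraries. ITGB1 exceeded LAMA5 in 9 libraries, and LAMA5 exceeded ITGA6 in 7. LAMA1 and ITGAV exceeded each other in 5 libraries each, so that pair could not be ordered. Whether the normalized values scale with exon length is unknown, so this order and the chain shares below rest on the division by length. Undivided, the median was 13928.5 for LAMA5 and 8842 for ITGB1, the reverse of their order per kilobase.

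The promoters of the genes are shown for a pair of laminin chains, LAMA5 and LAMB1, which had the widest range of group means among the matched laminin chains. The RefSeq table (build GRCh38.p14, 250 bases before to 50 after each gene start) matched 8 of the 10 genes, and LAMA1 and LAMC3 were unmatched. Capitals mark a GC box (GGGCGG) or an E2F core (GGCGGGA), on either strand. The MAF half-site TGCTGA and the TATA box TATAAA were searched on both strands as well and had no match in these 2 windows. LAMA5 lies at chr20:62367263-62367562 and LAMB1 at chr7:108003112-108003411, both on the minus strand.
LAMA5: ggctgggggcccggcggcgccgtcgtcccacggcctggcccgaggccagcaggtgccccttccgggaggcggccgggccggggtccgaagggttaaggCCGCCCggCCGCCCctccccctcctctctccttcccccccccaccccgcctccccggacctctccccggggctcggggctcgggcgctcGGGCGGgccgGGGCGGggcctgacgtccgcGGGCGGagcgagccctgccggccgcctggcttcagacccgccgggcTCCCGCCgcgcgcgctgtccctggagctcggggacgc
LAMB1: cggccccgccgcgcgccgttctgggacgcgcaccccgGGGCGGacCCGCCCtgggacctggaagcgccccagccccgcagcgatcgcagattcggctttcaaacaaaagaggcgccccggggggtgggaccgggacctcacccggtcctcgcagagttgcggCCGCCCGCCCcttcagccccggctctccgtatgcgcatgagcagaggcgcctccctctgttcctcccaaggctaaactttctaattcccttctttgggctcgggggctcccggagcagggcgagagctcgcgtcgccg
The LAMA5 window held 5 GC boxes, 1 E2F core and 41 CpG dinucleotides, more than 93.3% of the 35116 promoters in the table. The LAMB1 window held 4 GC boxes, of which 2 share letters, and 35 CpG, more than 85.9% of promoters. A GC box occurred in 45% of all promoters, the E2F core in 15.4%, the MAF half-site in 17.3% and the TATA box in 11.5%. These matches describe letters only and were not tested for binding.

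**Figure D1:**
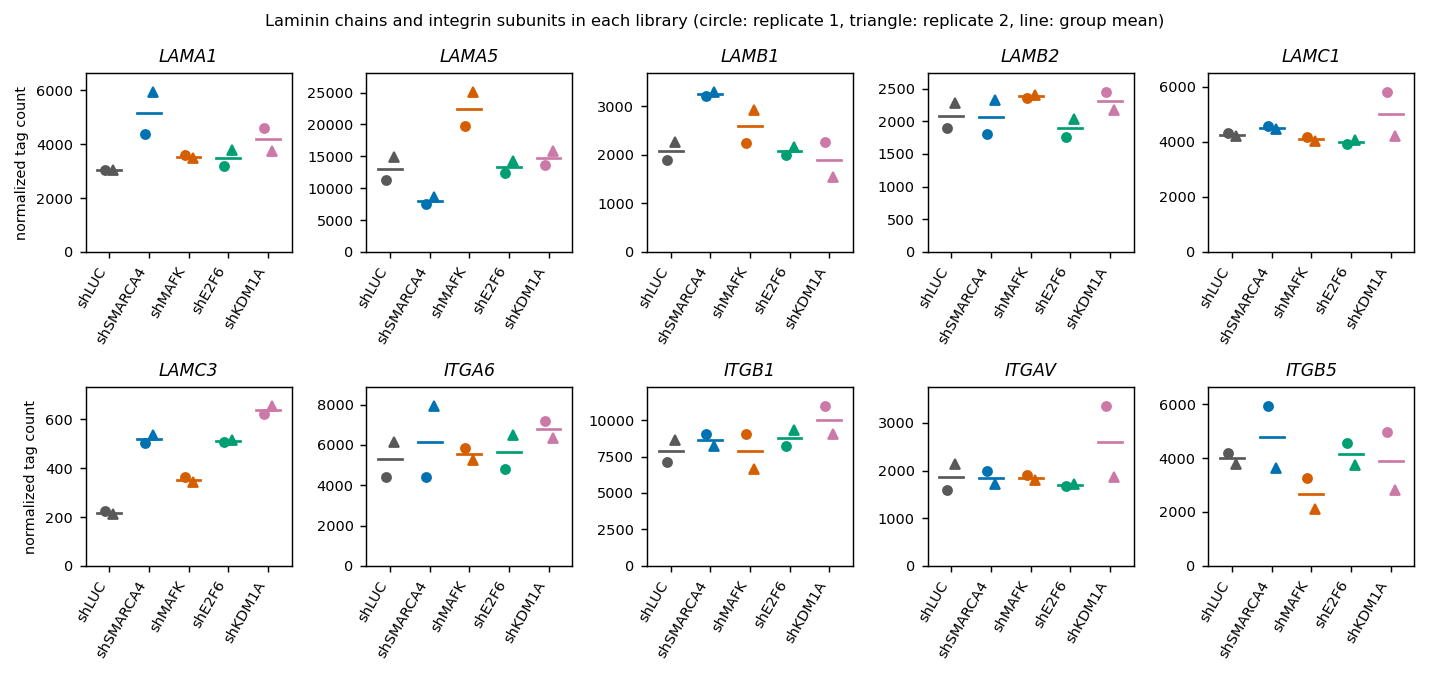
Normalized tag count (vertical axes, linear from 0, one scale per gene) of the 10 genes in each of the 10 libraries, by group. Circles are replicate 1, triangles replicate 2 and lines group means. LAMC3 and LAMA1 are lowest in both shLUC libraries, and LAMA5 is lowest in shSMARCA4 and highest in shMAFK.

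LAMC3 (ENSG00000050555, chromosome 9, 131009082 to 131094473, plus strand, GRCh38) encodes the laminin γ3 chain. Its normalized tag counts were 224 and 213 in shLUC, and in the knockdowns 502 and 537 (shSMARCA4), 363 and 344 (shMAFK), 509 and 516 (shE2F6) and 621 and 654 (shKDM1A). Both control libraries lay below all 8 knockdown libraries, and replicates lay close together in every group. Of the 10 genes, LAMC3 and LAMA1 had this arrangement, which was found for 2.06% of all rows. Since the 4 comparisons share the 2 control libraries, the 4 higher values are not independent of each other.

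LAMC3 rose 2.37-fold in shSMARCA4, which is 1.25 on the log2 scale with an SE of 0.14 (adjusted p 0.00207 by limma). It rose 2.91-fold in shKDM1A, or by 1.54 with the same SE of 0.14 (adjusted p 0.00571 by limma). The log2 change was 1.23 (SE 0.14, limma adjusted p 0.117) in shE2F6 and 0.69 (SE 0.14, limma adjusted p 0.14) in shMAFK, neither past the threshold of 0.05. LAMC3 stayed past the threshold in shSMARCA4 under all 22 alternatives run. In shKDM1A it was not past it without shLUC replicate 1 (limma adjusted p 0.133), without shLUC replicate 2 (0.0626), with group weights (0.0579) or in a fit of only the 2 groups (0.525), with log2 changes from 1.5 to 1.58 over all its alternatives. In shE2F6 it passed without both shKDM1A libraries (limma adjusted p 0.0315).

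Between the knockdowns, where the control means take no part, LAMC3 was 0.55 higher (SE 0.14, log2) in shSMARCA4 than in shMAFK, with a limma adjusted p of 0.0398, where 7.76% of all rows were called. That call held under 13 of 21 alternatives and was lost on leaving out any 1 library of shLUC, shSMARCA4, shMAFK or shE2F6. The shMAFK and shKDM1A libraries did not overlap, with a log2 difference of -0.85 (SE 0.14, limma adjusted p 0.0789). The difference between shSMARCA4 and shE2F6 was 0.02 on the log2 scale, with a 95% interval from -0.29 to 0.33. LAMC3 made up 5.32% to 5.44% of the summed LAMC1 and LAMC3 value per kilobase in shLUC. It made up 8.62% to 8.80% in shMAFK and 10.61% to 14.71% in the other 3 knockdowns, so LAMC1 remained the larger of the 2 gamma chains in every library.

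Over the 10 libraries, the gene rows most like LAMC3 by Pearson r of log2 values were TMEM37 (r = 0.945), ZYG11A (0.94) and ZBED4 (0.935). These are the highest of all gene rows and carry no test. ZYG11A, for example, had 205 and 144 in shLUC and 232 to 378 in the knockdowns.

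LAMA5 (ENSG00000130702, chromosome 20, 62307955 to 62367312, minus strand) encodes the α5 chain of the laminin that supports self-renewing stem cells. Its normalized tag counts were 11280 and 14837 in shLUC, and in the knockdowns 7442 and 8630 (shSMARCA4), 19696 and 25026 (shMAFK), 12342 and 14279 (shE2F6) and 13578 and 15764 (shKDM1A). Both shSMARCA4 libraries lay below, and both shMAFK libraries above, every other library. Replicate 2 was above replicate 1 in all 5 groups. The values in shE2F6 lay within the range of the control libraries.

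Against shLUC, the log2 change of LAMA5 was -0.69 (SE 0.19, limma adjusted p 0.0839) in shSMARCA4 and 0.78 (SE 0.19, limma adjusted p 0.199) in shMAFK, neither past the threshold. The first passed under 5 of 22 alternatives. Among them were the fits without both shKDM1A libraries (limma adjusted p 0.0467), with group weights (0.04) and with a replicate block (0.0192). The second passed under 1 of 22, with group weights (limma adjusted p 0.0278). When 1 library was left out, they ran from -0.89 to -0.49 and from 0.58 to 0.98. Compared directly, LAMA5 was lower in shSMARCA4 than in shMAFK by a log2 difference of -1.47 (SE 0.19, limma adjusted p 0.00239), which held under all 21 alternatives run. It was also lower in shSMARCA4 than in shKDM1A (log2 difference -0.87, SE 0.19, limma adjusted p 0.0277, with 6.87% of all rows called), a call lost with group weights and without either shSMARCA4 library. In shE2F6 and shKDM1A the log2 change against shLUC was 0.04 (95% interval -0.38 to 0.46) and 0.18 (-0.24 to 0.60).

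LAMA5 ranked between the 72nd and the 432nd highest row of a library, where normalized values are spaced apart, and a move by 10 rows there shifted the log2 value by at most 0.13. ADRM1, a proteasome subunit gene on the opposite strand, overlaps LAMA5 and is itself a row. Its log2 change was -0.02 in shSMARCA4 and 0.11 in shMAFK (limma adjusted p 0.981 and 0.952). The rows most like LAMA5 were RGS5 (r = 0.986), ASS1 (0.982) and FGF2 (0.977) over the 10 libraries, with no test. FGF2, a growth factor that maintains human pluripotent cells, had 1228 and 1591 in shSMARCA4, 2273 and 3226 in shLUC and 4132 and 5844 in shMAFK.

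LAMA1 (ENSG00000101680, chromosome 18, 6941744 to 7117814, minus strand) encodes the α1 chain, the alpha chain of the laminin first purified from a mouse tumour matrix. Its normalized tag counts were 3026 and 3046 in shLUC, and in the knockdowns 4392 and 5925 (shSMARCA4), 3584 and 3476 (shMAFK), 3208 and 3799 (shE2F6) and 4613 and 3740 (shKDM1A). The control libraries were the lowest of all, and the shSMARCA4 libraries overlapped with those of shKDM1A. The log2 change was 0.75 (SE 0.19, limma adjusted p 0.0635) in shSMARCA4, not past the threshold. It passed under 4 of 22 alternatives, among them the fit without both shKDM1A libraries (limma adjusted p 0.026). In that fit the calls over all rows rose from 618 to 1162. The log2 change in shSMARCA4 ran from 0.53 to 0.96 when 1 library was left out. It was 0.45, 0.22 and 0.20 in shKDM1A, shMAFK and shE2F6 (limma adjusted p 0.413, 0.87 and 1).

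The balance of the 2 alpha chains was then compared, without a test. Per kilobase, LAMA1 made up 19.5% and 15.6% of the sum of LAMA1 and LAMA5 in shLUC, and 34.7% and 38.2% in shSMARCA4. Its share was 14.1% and 11.1% for shMAFK, 19% and 19.3% for shE2F6 and 23.4% and 17.6% for shKDM1A. The shSMARCA4 libraries lay above, and the shMAFK libraries below, all others. The summed EOMES, FOXA2, HHEX and MIXL1 values were 5271 in shSMARCA4 replicate 1 and 1163 in replicate 2, while LAMA1 was higher in replicate 2. The part of these markers in the LAMA1, LAMB1, LAMC3 and LAMA5 values of shSMARCA4 was not tested.

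**Figure D2:**
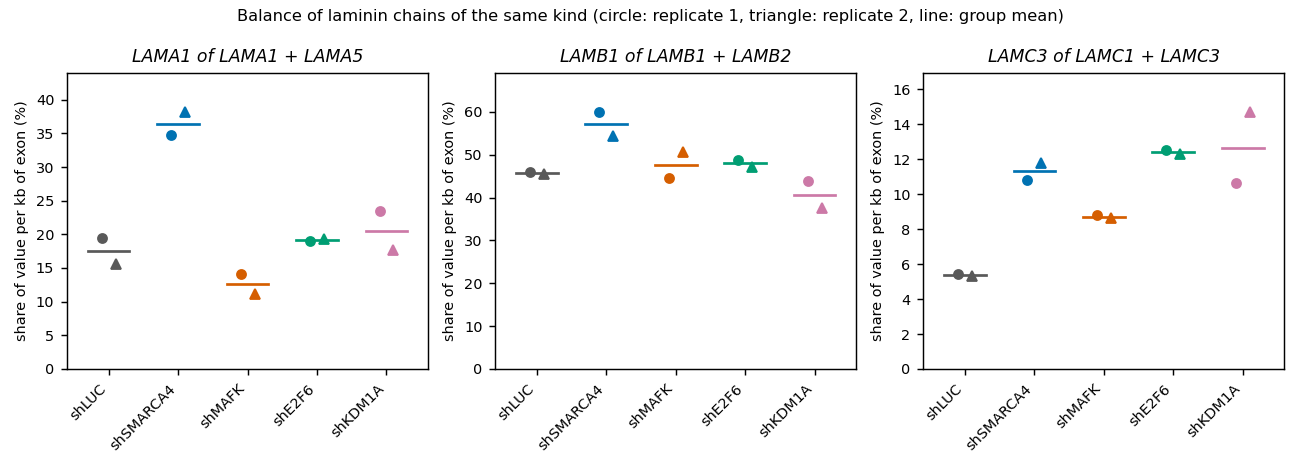
Share (%, vertical axes, linear from 0) of one laminin chain in the summed value per kilobase of a pair of chains of the same kind, in each library. Circles are replicate 1, triangles replicate 2 and lines group means. LAMA1 takes 34.7% and 38.2% of its pair in shSMARCA4 and at most 23.4% elsewhere, and LAMC3 takes its lowest share in shLUC.

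LAMB1 (ENSG00000091136, chromosome 7, 107923799 to 108003255, minus strand) encodes the β1 chain and LAMB2 (ENSG00000172037, chromosome 3, 49121114 to 49133118, minus strand) the β2 chain. LAMB1 had 1898 and 2257 normalized tag counts in shLUC, and in the knockdowns 3207 and 3289 (shSMARCA4), 2249 and 2934 (shMAFK), 1991 and 2154 (shE2F6) and 2257 and 1543 (shKDM1A). Both shSMARCA4 libraries lay above all others. The log2 change of LAMB1 in shSMARCA4 was 0.65 (SE 0.21, limma adjusted p 0.158), not past the threshold. It passed under 4 of 22 alternatives, among them the fit without both shKDM1A libraries (limma adjusted p 0.0427), which called 1162 rows against 618. When 1 library was left out, it ran from 0.52 to 0.77 in shSMARCA4. DLD, an enzyme gene overlapping LAMB1 on the opposite strand, had a log2 change of -0.50 there (limma adjusted p 0.168). LAMB2 ranged from 1760 to 2441 over the 10 libraries, with log2 changes from -0.14 to 0.20. LAMB1 made up 60% and 54.3% of the pair per kilobase in shSMARCA4, 45.9% and 45.5% in shLUC and 37.5% to 50.7% elsewhere.

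LAMC1 (ENSG00000135862, chromosome 1, 183023460 to 183145592, plus strand), the γ1 chain, had a narrow range. It lay between 3929 and 4573 normalized tag counts in 9 libraries, and shKDM1A replicate 1 held 5791. Its log2 change in shKDM1A was 0.21 (SE 0.17), -0.02 without that library and 0.45 without replicate 2 (limma adjusted p 0.0414, in the fit that called 3235 rows).

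Of the 4 integrin subunits, 0 passed the threshold in any knockdown. ITGB1 (ENSG00000150093, chromosome 10, 32900319 to 33005792, minus strand) had 7097 and 8628 in shLUC and 6647 to 10950 in the knockdowns. Its log2 changes ran from -0.01 in shMAFK to 0.35 in shKDM1A, with SE 0.19. ITGA6 (ENSG00000091409, chromosome 2, 172427354 to 172506282, plus strand) had 4426 and 6143 in shLUC and 4390 to 7917 in the knockdowns, both of these ends in shSMARCA4. Its log2 changes ran from 0.09 to 0.38, with SE 0.28.

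ITGAV (ENSG00000138448, chromosome 2, 186590065 to 186680901, plus strand) lay between 1591 and 2130 normalized tag counts in 9 libraries, and shKDM1A replicate 1 held 3348. Its log2 change in shKDM1A was 0.44 (SE 0.26, limma adjusted p 0.512), 0.01 without replicate 1 and 0.86 without replicate 2 (adjusted p 0.0178, in the fit that called 3235 rows), so that 1 library decided its size. ITGB5 (ENSG00000082781, chromosome 3, 124761948 to 124901418, minus strand) had 4196 and 3798 in shLUC, and in the knockdowns 5923 and 3622 (shSMARCA4), 3262 and 2104 (shMAFK), 4572 and 3738 (shE2F6) and 4958 and 2818 (shKDM1A). Replicate 1 was above replicate 2 in all 5 groups, and both shMAFK libraries lay below both controls. The log2 change of ITGB5 was -0.61 (SE 0.33, limma adjusted p 0.681) in shMAFK, from -0.92 to -0.29 when 1 library was left out. The rows most like ITGB5 were CPT1A (r = 0.961), IVNS1ABP (0.961) and LEFTY1 (0.953). LEFTY1, a Nodal inhibitor, had 1885 in shSMARCA4 replicate 1 and 131 in replicate 2, the same order of replicates as ITGB5.

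**Figure D3:**
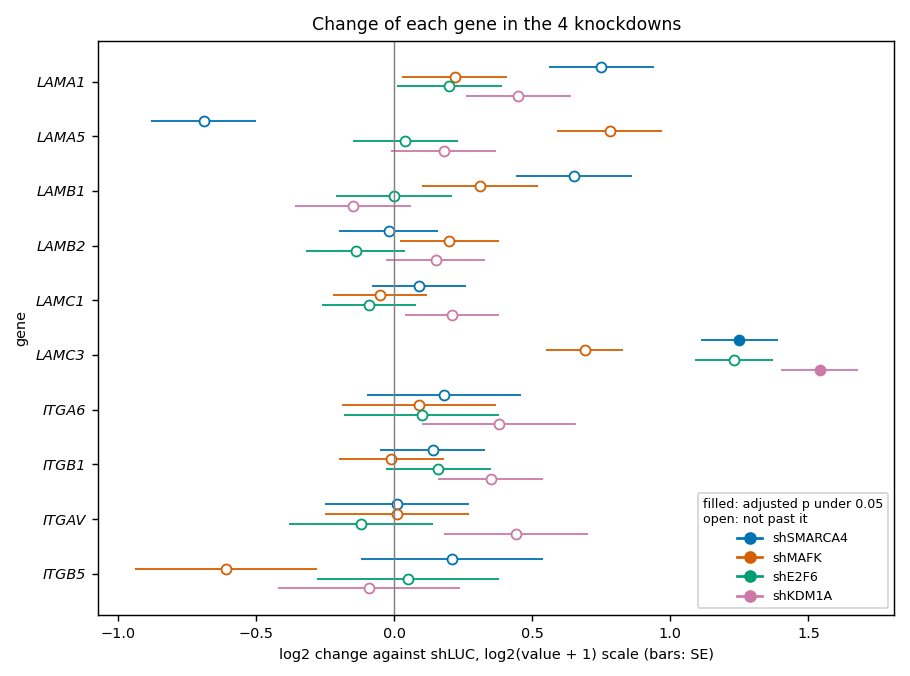
Log2 change against shLUC (horizontal axis, log2(value + 1) scale) of each gene in the 4 knockdowns, with the SE from limma as bars. Filled points passed an adjusted p of 0.05, which are LAMC3 in shSMARCA4 (1.25) and in shKDM1A (1.54), and open points did not.

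As a group, 1 of the 10 genes was past the threshold in shSMARCA4, where 4.18% of all rows were, and 1 in shKDM1A, where 0.0271% were. In shMAFK and shE2F6 the limma fit called 0 of the 10, against 0.0135% and 0% of all rows. At an unadjusted p under 0.05 there were 4 in shSMARCA4 (16.3% of all rows), 2 in shKDM1A (11.5%), 2 in shMAFK (8.77% of all rows) and 1 in shE2F6 (5.09%). Between the knockdown and control libraries, shSMARCA4 separated without overlap for 5 of the 10 genes (51% of all rows), shMAFK for 6 (49.1%), shE2F6 for 3 (40.7%) and shKDM1A for 4 (38.8%), shares near those of the whole table. The median log2 change of the 10 genes ran 0.16, 0.14, 0.04 and 0.28 for shSMARCA4, shMAFK, shE2F6 and shKDM1A, against 0.01, 0, 0 and -0.02 over all rows. A moderated F-test over the 5 groups called LAMA5 (limma adjusted p 0.0175) and LAMC3 (0.00292), 2 of 10, where 5.07% of all rows were called.

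The wider matrix and adhesion machinery was examined with 6 lists of 95 genes, of which 72 were rows of the table. In shSMARCA4, 13 of the 72 were past the threshold, 4 higher and 9 lower, against 1.67% and 2.51% of all rows in these directions. In shMAFK, shE2F6 and shKDM1A the limma fit called 0 of 72, with 4, 6 and 15 at an unadjusted p under 0.05 (8.77%, 5.09% and 11.5% of all rows). The median log2 change of the 72 was -0.05 in shSMARCA4 and 0.13, 0.06 and 0.14 in the others.

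Among basement membrane and matrix genes (14 of 18 in the table), 4 fell and 1 rose in shSMARCA4. NID2, a nidogen that links laminin to collagen IV, had 437 and 430 normalized tag counts in shLUC and 198 and 150 in shSMARCA4 (log2 change -1.33, SE 0.18, limma adjusted p 0.00495). COL18A1, a basement membrane collagen, had 17675 and 18610 against 8223 and 6930 (-1.26, SE 0.21, limma adjusted p 0.013). SPARC, a collagen-binding matrix protein, and COL4A4, a collagen IV chain, also fell, by 1.26 and 1.20 on the log2 scale. COL4A4 had 99 and 151 in shLUC and 58 and 48 in shSMARCA4, and its change ran from -1.5 to -0.9 when 1 library was left out. TNC, the matrix protein tenascin C, rose from 164 and 180 to 724 and 462 (1.75, SE 0.26, limma adjusted p 0.0082).

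Of the other laminin receptors (9 of 12 in the table), SDC2, a syndecan proteoglycan that binds matrix proteins, fell from 2295 and 2302 to 695 and 652 in shSMARCA4 (log2 change -1.77, SE 0.20, limma adjusted p 0.00218). This call held under all 22 alternatives run. BCAM, a receptor for the α5 chain, had 2512 and 2757 in shLUC, 1208 and 1734 in shSMARCA4 and 3604 and 4036 in shMAFK. Both shMAFK libraries lay above all others, while those of shSMARCA4 overlapped with shKDM1A (1701 and 2782), and its log2 changes of -0.86 and 0.54 were not past the threshold (limma adjusted p 0.106 and 0.602). When 1 library was left out, the log2 change of BCAM in shSMARCA4 ran from -1.12 to -0.6.

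Of the other integrin subunits (11 of 22 in the table), ITGA5, which pairs with β1 to bind fibronectin, rose by 1.01 on the log2 scale in shSMARCA4 (SE 0.21, limma adjusted p 0.0342). ITGA4, another β1 partner, fell by 1.26 (SE 0.24, limma adjusted p 0.0211), from 152 and 149 to 66 and 59. Of the other laminin chains (4 of 6 in the table), LAMA2, the α2 chain of muscle laminin, had 248 and 260 in shLUC and 311 to 649 in the 8 knockdown libraries. LAMA2 rose by 0.84 on the log2 scale in shSMARCA4 (SE 0.16, limma adjusted p 0.0231). In shKDM1A its change of 1.29 missed the threshold (SE 0.16, limma adjusted p 0.055), and was 1.23 without shKDM1A replicate 1 and 1.35 without replicate 2.

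Of the integrin adhesion adaptors (23 of 25 in the table), 3 fell in shSMARCA4 and 0 rose. BCAR1 and NEDD9, related scaffold proteins phosphorylated on integrin binding, fell by 1.28 and 1.42 on the log2 scale (limma adjusted p 0.00774 and 0.0242), and TNS3, a tensin, fell by 0.79 (0.0415). NEDD9 also had a log2 change of -1.52 in shKDM1A, not past the threshold (limma adjusted p 0.132). It was -1.16 without shKDM1A replicate 1 and -1.88 without replicate 2. Of the dystroglycan glycosylation enzymes (11 of 12 in the table), which make the laminin-binding sugar of dystroglycan, POMGNT1 rose by 0.68 in shSMARCA4 (limma adjusted p 0.0258). POMGNT2 had a log2 change of -0.68 in shKDM1A (limma adjusted p 0.389), -0.31 without shKDM1A replicate 1 and -1.06 without replicate 2.

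COL1A1, PDGFRA and VIM, from the mesenchyme or mesoderm list, summed to 1461 and 1545 in the shSMARCA4 libraries against 5346 to 11856 elsewhere. EOMES, FOXA2, HHEX and MIXL1, from the endoderm list, summed to 5271 and 1163 there against 72 to 153 elsewhere. The part of these markers in the 13 calls was not tested. Of the 22 alternatives run, SDC2 was called in all, COL4A4 in 11, TNS3 in 13, ITGA5 and POMGNT1 in 14 and the others in 18 to 20. The count of 13 rested on the 10 libraries together. It was 1 (SDC2) without either shLUC library, 5 without shSMARCA4 replicate 1 and 3 without shSMARCA4 replicate 2. It was 19 without both shKDM1A libraries, BCAM among them, where the count over all rows was 1162. The count over all rows moved as well, from 618 to 127 and 89 without shLUC replicate 1 and 2, and to 247 and 194 without shSMARCA4 replicate 1 and 2.

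**Figure D4:**
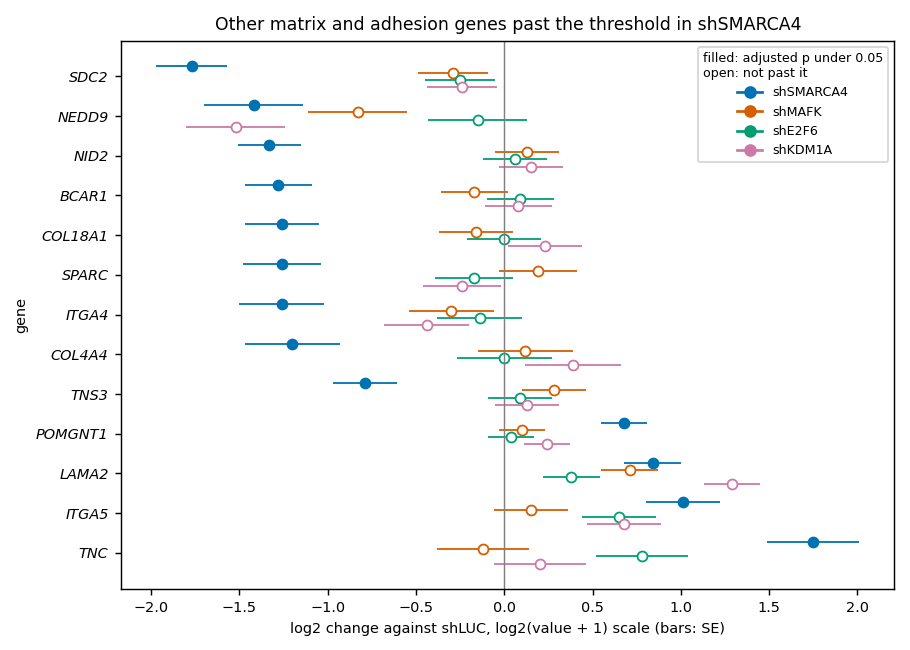
Log2 change against shLUC (horizontal axis, log2(value + 1) scale, SE as bars) in the 4 knockdowns of the 13 matrix and adhesion genes outside the laminins and integrins described first that passed an adjusted p of 0.05 in shSMARCA4. Filled points passed in that knockdown. SDC2 lies lowest at -1.77 and TNC highest at 1.75.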

How the data were processed

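Values are scores, whole numbers that the authors normalized before they were deposited as normalized tag counts; the method, counter and annotation are not given in the sources used here. The submitters' processing notes name STAR, STARsolo and hg38. At 80.3% of ranks one value was common to the 10 libraries, and totals lay between 22836548 and 22855295, so depth is unknown and no interval from counts is given. How reads shared by overlapping genes, strands or paralogs were assigned is not stated. Columns were matched by sample descriptions, and 0 columns were unmapped.

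Values were analysed as log2(value + 1), which understates changes of low rows. A minimum mean of 10 removed 0 of the 14785 rows, which entered 1 fit of 10 libraries with limma 3.58.1 in R 4.3.3 (eBayes with trend, two-sided, 5 residual degrees of freedom), p-values adjusted by Benjamini-Hochberg across the table, and a threshold of 0.05. The fit was tested on simulated data. Positions and exon lengths are from GENCODE release 29 (GRCh38). Tables and plots used Python 3.11.15, pandas 2.3.3 and matplotlib 3.10.9.

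The genes, lists and tests were chosen with earlier results of these data known. Named genes were the 10 genes and each knockdown's target, genes of the 6 lists past the threshold or with 1 of the 2 smallest p per list (1 such gene is not reported here), and the 3 rows most like each of the 3 genes with the widest range of group means. Alternatives covered the pseudocount, filter, scaling, variance model, libraries in the fit, the replicate block and leaving out each library. The alternative without a filter repeated the main fit, since the filter removed 0 rows, so it could not change a call. For genes outside the 10, they were added after seeing the data.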

Additional observations from a re-analysis of the deposited data

How the results depend on the processing

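Of 870 refitted changes of the 10 genes, 856 moved by less than the SD between replicates and 14 by more. Many could not move, since each change is a difference of group means. The filter, variance model, group weights, replicate block and leaving out libraries of other groups keep those means, so such refits say nothing about stability. Only LAMC3 in shSMARCA4 and shKDM1A was called in the main fit, and both changes kept their sign. Uncalled changes could turn sign, as for ITGA6 in shSMARCA4 in 2 of 22 alternatives. Group weights gave 4 of the 10 genes in shSMARCA4 (main 1), 2 in shMAFK (main 0), 1 in shE2F6 (main 0) and 0 in shKDM1A (main 1), with 20 of the other 72 in shSMARCA4 and 2 in shMAFK. Over all 14785 rows, this setting moved the calls from 618 to 1306 in shSMARCA4, 2 to 487 in shMAFK, 0 to 21 in shE2F6 and 4 to 2 in shKDM1A. Without both shKDM1A libraries, 4 of the 10 passed in shSMARCA4 and 1 in shE2F6, where all rows gave 1162 and 5. A fit of only the 2 groups gave 0 in shKDM1A. A pseudocount of 10, quantile normalization and size factors each gave 1 of the other 72 (LAMA2) in shKDM1A.

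Leaving out 1 library gave 1 to 4 of the 10 genes in shSMARCA4, 0 in shMAFK, 0 to 1 in shE2F6, 0 to 3 in shKDM1A and 1 to 5 in the F-test. For the other 72 it gave 1 to 18 in shSMARCA4, 0 in shMAFK and shE2F6 and 0 to 17 in shKDM1A, the 17 without shKDM1A replicate 2. All rows gave 89 to 1159 in shSMARCA4, 0 to 37 in shMAFK, 0 to 5 in shE2F6 and 1 to 3235 in shKDM1A, the 3235 also without shKDM1A replicate 2. A group left with 1 library was assumed to vary like the others.

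The replicate numbers were not taken as pairs, since only 2 of 10 correlations of replicate differences exceeded 0.1 (range -0.0503 to 0.337). With the number as a replicate block, 2 of the 10 genes passed in shSMARCA4, LAMC3 and LAMA5 (limma adjusted p 0.0192), and no other count of the 10 or the 72 genes moved by over 1.5 times.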
